A study of Mus musculus with 10 samples.

Results

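miR-143 and miR-145 are mature microRNAs (miRNAs) made from neighbouring hairpins of one primary transcript, and both guide strands were measured here in proliferating C2C12 cells, a mouse skeletal myoblast line of the C3H strain. They were chosen by name and not by a rule on their values, though with earlier results of these data known. They are 2 of the 375 miRNA assays on Array A, the qPCR-array of better characterised rodent miRNAs (335 mouse and 40 rat assays), and 2 of the 617 mouse probes on the microarray. All samples were aliquots of a single RNA preparation, so the cells, genotype and treatment were the same throughout and no biological replicate was available. The groups were the reverse transcription reactions of 500 ng RNA on Array A, RT2 and RT1, each run on day 2 and day 1, giving 4 cards, and microarray 2 and microarray 1, each hybridised with 8 μg RNA. The 4 cards of Array B, run with or without pre-amplification of the cDNA, were used only for miR-145* and for the decimals of Ct. The paper gives a smaller RNA input for these cards than for Array A. The SDs given for a miRNA are therefore the spread between cards, or between spots of an array, for the same RNA. The SEs, intervals and p-values from limma use a variance that borrows from all miRNAs fitted, and so are not a miRNA's own spread. All of them measure technical spread only.

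A miRNA guides an Argonaute protein to messenger RNAs that pair with its seed, bases 2 to 8 from the 5′ end, and lowers their translation and stability. miR-143 and miR-145 are known as miRNAs of mesenchymal cells. They are abundant in vascular and visceral smooth muscle and in fibroblasts. In smooth muscle, serum response factor (SRF) with its coactivator myocardin drives their shared transcript. Known targets include the growth factor signalling regulator Elk1 for miR-143 and the transcription factor Klf4 for miR-145, both of which restrain the contractile smooth muscle programme. In the RefSeq annotation the genes Mir143 and Mir145a lie on mouse chromosome 18 within Carmn, a long noncoding RNA also listed as Mir143hg. Mir145b is annotated on the same chromosome outside Carmn. The files give the names mmu-miR-143 and mmu-miR-145, and mmu-mir-145 is a listed synonym of Mir145a.

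The pair are not related in sequence. The microarray target of miR-143 was 21 nucleotides long with a GC content of 47.6%, and that of miR-145 was 23 nucleotides long with a GC content of 52.2%, against a median GC content of 45.5% over the 617 targets. No other of the 617 targets shared either seed. The closest target to miR-143 differed by 7 insertions, deletions or substitutions, and the closest to miR-145 by 9. No other probe on the microarray therefore had a near-identical target.

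Both miRNAs were detectable on all 4 Array A cards. The threshold cycle, Ct, is the PCR cycle at which fluorescence crosses a fixed threshold, so a lower Ct means more template. Detectable means here that the 4 cards averaged a Ct no higher than 35. By this rule 182 of the 375 miRNA assays (48.5%) were detectable, and single cards had 188 to 195 miRNAs at 35 or less. miR-143 had Ct values of 28.957 and 28.796 in RT2 on day 2 and day 1, and of 29.092 and 29.060 in RT1 on day 2 and day 1. Both RT2 cards were thus below both RT1 cards for miR-143, and all 4 lay within 0.296 cycles. miR-145 had Ct values of 26.921 and 26.879 in RT2 on day 2 and day 1, and of 26.977 and 26.899 in RT1 on day 2 and day 1. The RT2 and RT1 values of miR-145 overlapped, and all 4 cards lay within 0.098 cycles. The mean Ct was 28.98 ± 0.133 for miR-143 and 26.92 ± 0.0423 for miR-145 (SD, n = 4 cards). As RNA was pooled from whole cultures, few cells with much of a miRNA and many cells with little cannot be told apart.

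The small nuclear RNA MammU6 was the endogenous control, and its Ct was subtracted on each card to give ΔCt. MammU6 was at 19.581 and 19.605 in RT2 on day 2 and day 1, and at 19.770 and 19.573 in RT1 on day 2 and day 1. The RT1 card of day 2 thus had the highest MammU6 Ct, and the other 3 cards lay close together. The ΔCt of miR-143 was 9.376 and 9.191 in RT2 on day 2 and day 1, and 9.322 and 9.487 in RT1 on day 2 and day 1, a mean of 9.34 ± 0.123 (SD, n = 4 cards). The ΔCt of miR-145 was 7.340 and 7.274 in RT2 on day 2 and day 1, and 7.207 and 7.326 in RT1 on day 2 and day 1, a mean of 7.29 ± 0.0603 (SD, n = 4 cards). After the subtraction the RT2 and RT1 values of both miRNAs overlapped, and the spread of miR-145 was wider than in raw Ct.

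**Figure D1:**
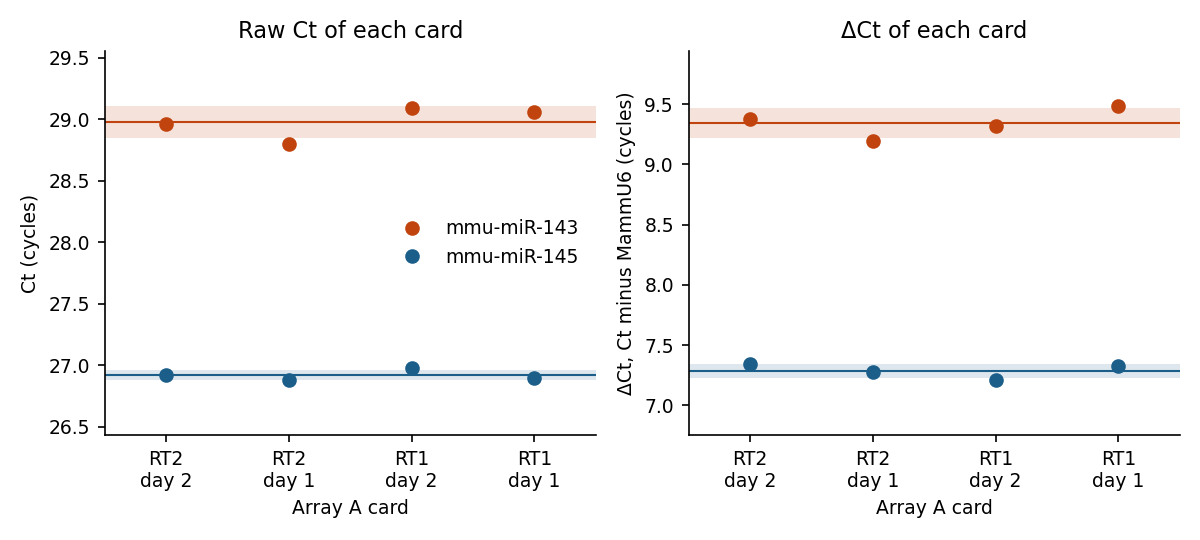
Ct (left, cycles) and ΔCt relative to MammU6 (right, cycles) of miR-143 and miR-145 on each of the 4 Array A cards, with the mean as a line and 1 SD on either side as a band. The 4 values of miR-145 lie between 26.879 and 26.977 in raw Ct, and those of miR-143 between 28.796 and 29.092, so the bands are far apart on both scales.

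miR-145 crossed the threshold before miR-143 on every card. The Ct of miR-145 minus that of miR-143 was -2.036 and -1.917 cycles in RT2 on day 2 and day 1, and -2.115 and -2.161 cycles in RT1 on day 2 and day 1, a mean of -2.06 ± 0.107 (SD, n = 4 cards). The difference was smaller on both RT2 cards than on either RT1 card, and it does not depend on the control, which cancels within a card. If both assays doubled their product in each cycle, it would correspond to 4.16-fold more miR-145 than miR-143. The 2 assays have their own primers and probes, whose efficiencies were not measured in the files used here, so the value is one of Ct and not of molecules.

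In the order of mean Ct, miR-145 was 29 of 182 and miR-143 was 67 of 182. This left 84.1% of the detectable miRNAs at a higher Ct than miR-145 and 63.2% at a higher Ct than miR-143. On single cards miR-145 ranked 23 and 25 in RT2 on day 2 and day 1, and 30 on both RT1 cards. miR-143 ranked 62 and 54 in RT2 on day 2 and day 1, and 67 and 70 in RT1 on day 2 and day 1. The neighbours of miR-145 in the order were miR-125a-5p (26.87), miR-93 (26.92), let-7c (26.92) and miR-92a (26.93), and those of miR-143 were miR-687 (28.94), miR-486 (28.97), miR-27b (29.07) and miR-501-3p (29.29), each as mean Ct. All of these overlapped their neighbour over the 4 cards. In all, the Ct ranges of 11 miRNAs, at ranks 21 to 32, overlapped that of miR-145, and those of 25 miRNAs, at ranks 46 to 71, overlapped that of miR-143. The exact ranks are therefore not resolved by these cards, whereas the ranges of miR-143 and miR-145 did not overlap.

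The spread of miR-145 was among the smallest on the cards. Only 7 of the 182 detectable miRNAs had a smaller SD of Ct than miR-145, and 58 had a smaller SD than miR-143. Among the 20 other miRNAs within 1 cycle of miR-145, 3 had a smaller SD and the median was 0.0978 cycles. Among the 47 others within 1 cycle of miR-143, 21 had a smaller SD and the median was 0.142 cycles, so miR-143 was typical for its Ct.

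The Ct values of Array A were crowded just below whole cycles, and miR-145 lay a little below a whole cycle on every card. Of the 696 wells of detectable miRNAs at a Ct of 35 or less, 34.8% had decimals of 0.9 or more. On Array B, the second card of the set, 12.6% of 356 wells at a Ct of 35 or less did. The Array B wells were not limited to detectable miRNAs and pooled cards with and without pre-amplification, so these shares are not matched for Ct. The decimals of miR-145 were 0.921 and 0.879 in RT2 on day 2 and day 1, and 0.977 and 0.899 in RT1 on day 2 and day 1. Only its day 2 cards were thus at 0.9 or more. Those of miR-143 were 0.957 and 0.796 in RT2 on day 2 and day 1, and 0.092 and 0.060 in RT1 on day 2 and day 1, so miR-143 lay on either side of a whole cycle. The share on Array A was 60.0% for Ct values of 20 to 25, 41.4% for 25 to 30, and 25.5% for 30 to 35. miR-145 belonged to a run of 12 miRNAs with mean Ct values of 26.85 to 26.95, in steps of under 0.1 cycles. The next miRNA below the run was at 25.96 and the next above it at 27.64. miR-143 belonged to a run of 23 miRNAs at 28.59 to 29.07, with the next below at 28.41 and the next above at 29.29. The step that defines a run was chosen after the values were seen. The small SD of miR-145, its many overlapping neighbours and the distance of close to 2 whole cycles between the pair were measured on this scale, and the part of the crowding in them was not tested.

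**Figure D2:**
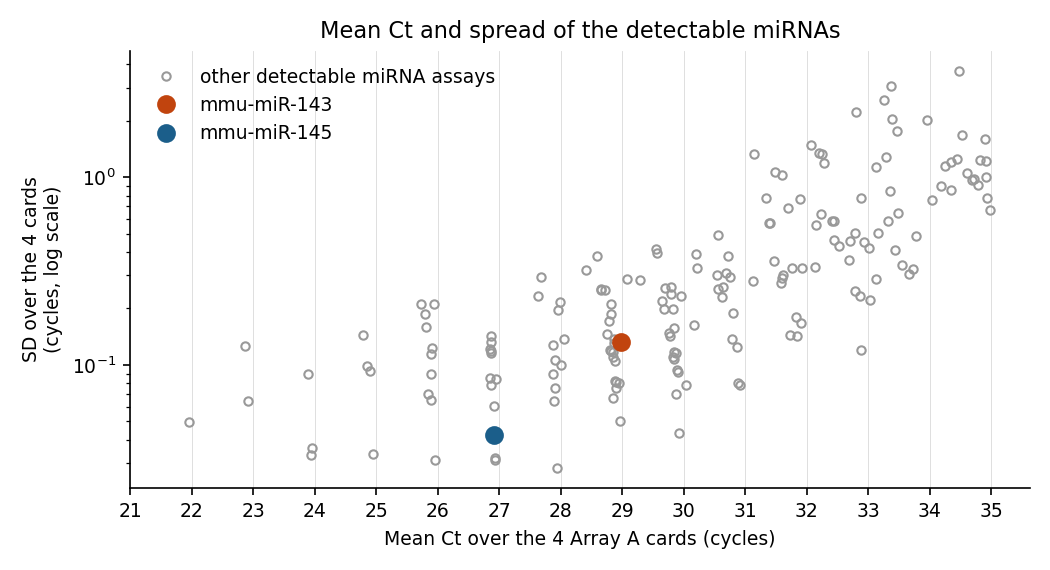
Mean Ct over the 4 Array A cards (x axis, cycles) and SD over the same cards (y axis, cycles, log scale) of the 182 detectable miRNA assays, with miR-143 and miR-145 filled. Points gather in columns just left of whole cycles, miR-145 (26.92, SD 0.0423) near the foot of one column and miR-143 (28.98, SD 0.133) in the middle of another.

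The first comparison asked whether a separate reverse transcription reaction changed the result. In the limma fit over the 182 detectable miRNAs, ΔCt of miR-143 differed by -0.12 cycles between RT2 and RT1 (SE 0.164, 95% interval -0.61 to 0.37, adjusted p = 0.871). That of miR-145 differed by 0.04 cycles (SE 0.144, 95% interval -0.39 to 0.47, limma adjusted p = 0.921). Neither difference passed the threshold, and 4 of the 182 miRNAs (2.20%) did at an adjusted p under 0.05. With the day as a replicate block 1 of the 182 did, and neither of the pair (limma adjusted p = 0.948 for both). The median ΔCt difference of all 182 was 0.12 cycles, so the values were also set relative to each card's mean over the miRNAs at 35 or less on every card. On that scale miR-143 differed by -0.25 cycles and miR-145 by -0.08 cycles, again without passing the limma threshold (adjusted p between 0.710 and 0.997 for miR-143 and between 0.778 and 0.998 for miR-145 over all settings run). The intervals of the ΔCt differences leave room for a shift of up to 0.61 cycles in miR-143 and 0.47 cycles in miR-145. With the day as a block the 95% intervals were wider, -0.90 to 0.66 for miR-143 and -0.69 to 0.77 for miR-145, and without the RT2 card of day 2 that of miR-143 was -1.04 to 0.62.

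The pairs of cards run on one day showed what the choice of control did. Relative to MammU6, RT2 minus RT1 of miR-143 was 0.05 cycles on day 2 and -0.30 cycles on day 1. That of miR-145 was 0.13 cycles on day 2 and -0.05 cycles on day 1, so each miRNA went in opposite directions on the 2 days. In raw Ct the same differences were -0.14 and -0.26 cycles for miR-143 and -0.06 and -0.02 cycles for miR-145, on day 2 and day 1, all in one direction. Relative to the mean of the other 4 endogenous controls (U87, Y1, snoRNA135 and snoRNA202) they were also all negative, at -0.31 and -0.34 cycles for miR-143 and -0.24 and -0.10 cycles for miR-145, on day 2 and day 1. The direction of the MammU6 values on day 2 moved with the high MammU6 Ct of the RT1 card of that day, given above.

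The second comparison asked whether running the same reverse transcription product on another day changed the result. ΔCt of miR-143 differed by 0.01 cycles between day 2 and day 1 (SE 0.203, 95% interval -0.58 to 0.60, limma adjusted p = 0.994). That of miR-145 differed by -0.03 cycles (SE 0.177, 95% interval -0.54 to 0.49, limma adjusted p = 0.994). These fits did not pair the cards of a reaction. With the reaction as a block the 95% intervals were wider, -0.77 to 0.79 for miR-143 and -0.76 to 0.70 for miR-145. With limma 0 of the 182 miRNAs (0%) passed the threshold, 8 had an unadjusted p under 0.05, and the unpooled test per miRNA that the study's methods name called 1. Within a reaction, day 2 minus day 1 relative to MammU6 was 0.19 cycles in RT2 and -0.17 cycles in RT1 for miR-143, and 0.07 cycles in RT2 and -0.12 cycles in RT1 for miR-145. In raw Ct all 4 differences were positive, at 0.16 cycles in RT2 and 0.03 cycles in RT1 for miR-143, and at 0.04 cycles in RT2 and 0.08 cycles in RT1 for miR-145. The signs of the day differences of both miRNAs thus depended on the control.

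**Figure D3:**
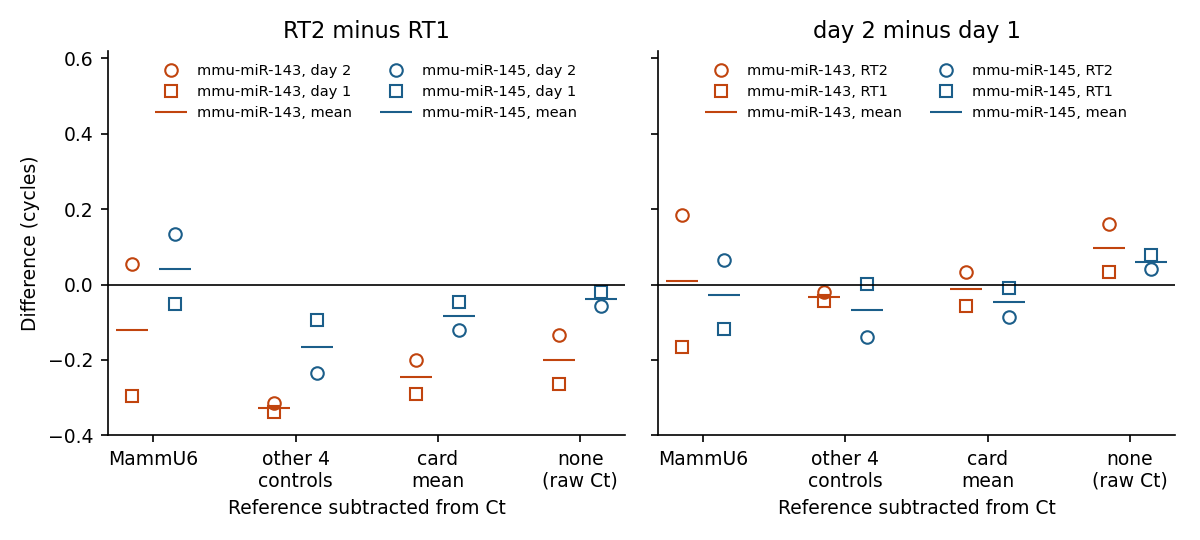
RT2 minus RT1 (left, cycles, within each day) and day 2 minus day 1 (right, cycles, within each reaction) of miR-143 and miR-145 after subtracting MammU6, the mean of the other 4 controls, the card mean or nothing. Open symbols are single pairs of cards and bars are their means; the pairs fall on both sides of 0 with MammU6 in both panels, and on one side with raw Ct.

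The other assays bearing on this hairpin pair were for miR-145*, the passenger strand that is usually degraded after the guide is loaded. On Array B miR-145* was undetermined, recorded as a Ct of 40, on both pre-amplified cards and on both cards without pre-amplification. The microarray gave it a signal of 22.4 ± 13.95 on array 2 and 13.9 ± 8.79 on array 1 (SD, n = 5 spots each), below the detection limit of 32 on both. The guide strand was thus above, and its passenger strand below, the detection rule of both platforms. No assay or probe named for the passenger strand of miR-143 was among those read here.

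On the microarray both guides were detected on both arrays. Each probe was printed in 5 spots, the authors deposited for each spot a mean scanner density and a background-subtracted signal, and a probe was taken as detected at a mean signal of 32 or more on both arrays, which 137 of 617 probes (22.2%) reached. The signal of miR-143 was 240, 223, 156, 220 and 223 over the spots of array 2, and 302, 290, 331, 332 and 327 over those of array 1. Every spot of array 2 was below every spot of array 1 for miR-143. The signal of miR-145 was 355, 297, 287, 289 and 314 over the spots of array 2, and 398, 352, 410, 327 and 447 over those of array 1. The arrays overlapped for miR-145, though its mean was also lower on array 2. The means were 212 ± 32.5 on array 2 and 316 ± 19.3 on array 1 for miR-143, and 308 ± 28.04 on array 2 and 387 ± 47.6 on array 1 for miR-145 (SD, n = 5 spots each).

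Before background subtraction the arrays were closer. The mean density of the miR-143 spots was 509 on array 2 and 545 on array 1, and that of the miR-145 spots 605 on array 2 and 615 on array 1. The 579 empty spots had a median density of 310 on array 2 and 225 on array 1. Between the density and the deposited signal of spots of these miRNAs, 284 to 307 units had been removed on array 2 and 227 to 230 units on array 1. All 5 spots of both guides were above the mean plus 3 SD of the empty spots, 355 on array 2 and 285 on array 1, and 0 of the 5 spots of miR-145* were on either array. The deposited signal of these spots is the density minus the amount removed. Its larger difference between the arrays than that in density is therefore, by arithmetic, the larger amount removed on array 2. Whether that amount was the right one was not tested beyond the settings given next.

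**Figure D4:**
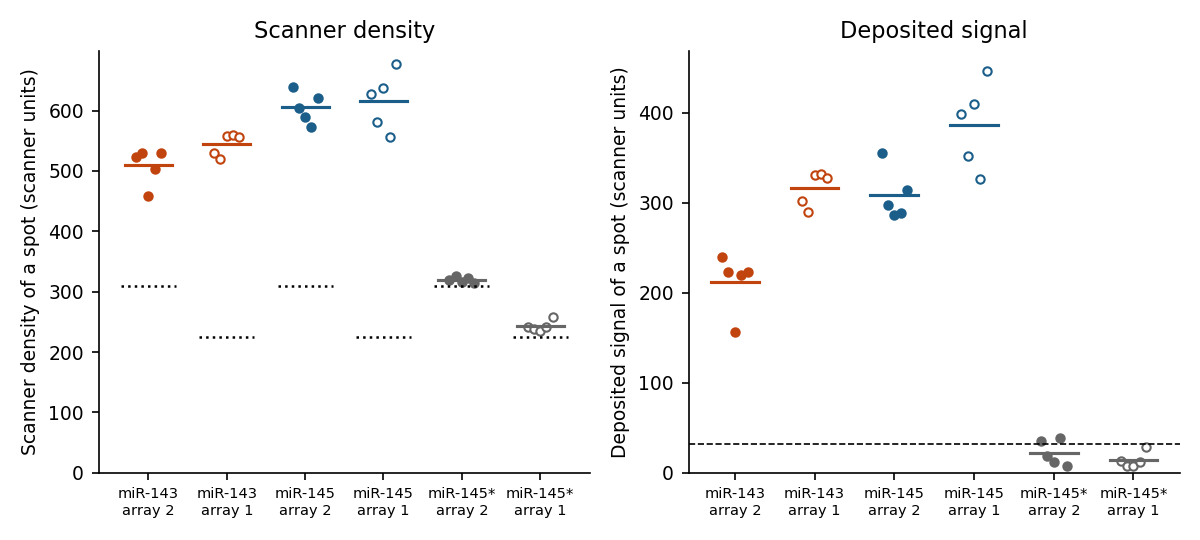
Scanner density (left, scanner units) and deposited background-subtracted signal (right, scanner units) of the 5 spots of miR-143, miR-145 and miR-145* on array 2 (filled) and array 1 (open), with means as bars. Dotted lines mark the median empty spot, 310 on array 2 and 225 on array 1, and the dashed line the detection limit of 32; both guides stand clear of these levels and miR-145* does not.

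The arrays were compared spot against spot in limma, using log2 densities corrected by normexp and loess, a test of these 2 hybridisations and not of the RNA. miR-143 was at 8.23 ± 0.163 on array 2 and 8.52 ± 0.0711 on array 1 (SD of log2 density, n = 5 spots each). The log2 difference was -0.29 (SE 0.0928, 95% interval -0.49 to -0.10), and with a limma adjusted p of 0.0649 it did not pass the threshold. miR-145 was at 8.66 ± 0.101 on array 2 and 8.75 ± 0.146 on array 1, a log2 difference of -0.09 (SE 0.0927, 95% interval -0.28 to 0.10, limma adjusted p = 0.885). Of the 617 probes 42 (6.81%) passed, 29 higher and 13 lower on array 2, whereas after quantile normalization 23 were higher and 28 lower.

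The call of miR-143 turned on the processing. It passed the limma threshold as lower on array 2 with no background correction (log2 difference -0.17, adjusted p = 0.0180), with quantile normalization (-0.50, adjusted p = 8.70e-04), with no normalization (-0.46, adjusted p = 0.00143) and over the 137 detected probes alone (-0.29, adjusted p = 0.0135). Under these settings 49, 51 and 72 of the 617 probes, and 53 of the 137 detected probes, passed, in that order. With the deposited signal miR-143 did not pass (-0.52, limma adjusted p = 0.237), and 17 of the 617 probes did. miR-145 was lower on array 2 under every setting run, by 0.07 to 0.32 on the log2 scale, and passed under none (limma adjusted p from 0.0593 to 0.885).

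The study also asked how the platforms compared. Over the 86 miRNAs detected on both, mean ΔCt and mean log2 signal were related with Pearson's r of -0.42 and Spearman's rho of -0.47. These are descriptions across miRNAs, which share cards and arrays and are not independent replicates. miR-143 had a mean log2 signal of 8.02 and lay 0.58 below the least squares line, and miR-145 had one of 8.43 and lay 1.06 below it. The residual SD was 2.55, and 40 and 28 of the 86 miRNAs had a lower residual than miR-143 and miR-145. The residual of miR-143 was -0.17 without array 2, and over the miRNAs with a signal of 100 or more on both arrays the residuals were -1.98 for miR-143 and -2.10 for miR-145, all below the line. By rank among the 86, miR-143 was 50 by Ct and 43 by signal, and miR-145 was 27 by Ct and 41 by signal. The pair were thus much closer in the order by signal than in the order by Ct. This compares positions and not amounts, since each probe has its own affinity.

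**Figure D5:**
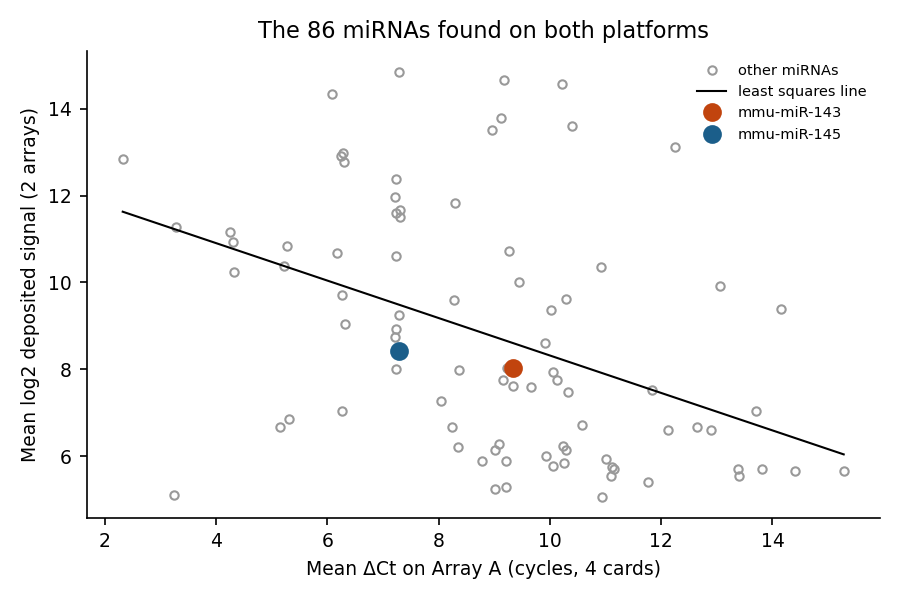
Mean ΔCt on Array A (x axis, cycles, lower means more template) and mean log2 deposited signal over both arrays (y axis) of the 86 miRNAs found on both platforms, with the least squares line. miR-143 (9.34, 8.02) and miR-145 (7.29, 8.43) lie below the line, inside the cloud of other miRNAs.

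The miRNAs whose values on both platforms were most like theirs were named by distance in this plane, each axis divided by its SD over the 86 miRNAs. For miR-143 they were miR-155 (0.0433 SD), miR-106b (0.115 SD) and miR-486 (0.143 SD). For miR-145 they were miR-221 (0.111 SD), miR-532-5p (0.153 SD) and miR-182 (0.180 SD). miR-155 had a mean Ct of 28.86 and signals of 361 on array 2 and 190 on array 1, so it was higher on array 2 while miR-143 was lower. miR-221, a mesenchymal miRNA that acts on the cell cycle inhibitor p27, had a mean Ct of 26.85 and signals of 359 on array 2 and 506 on array 1, lower on array 2 as miR-145 was. The mature sequences of 4 of these are shown, with the seed in capitals, to identify the strands that the comparison names. None of them shares a seed with miR-143 or miR-145, which holds for every other target on the array. They are from RefSeq on GRCm38.p6 and come from hairpins on chromosomes 16, 5, X and 6, in the order given.
mmu-miR-155-5p: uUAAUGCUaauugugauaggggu
mmu-miR-106b-5p: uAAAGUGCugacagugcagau
mmu-miR-221-3p: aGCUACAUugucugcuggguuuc
mmu-miR-182-5p: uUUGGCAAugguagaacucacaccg

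The pair were also set beside lists of cell type miRNAs. These lists were drawn up with earlier results of these data known, so their counts are descriptions only. All 12 assays of mesenchymal miRNAs were detectable and all 13 of their probes were detected, compared with 48.5% of all assays and 22.2% of all probes. miR-21, a miRNA of fibroblasts and proliferating cells, was at a mean Ct of 25.7 with signals of 20480 on array 2 and 21049 on array 1. miR-214, which is made with miR-199a from one transcript in mesenchyme, was at a mean Ct of 25.9. Of the 2 arms of miR-199a, miR-199a-3p was at 26.9 and miR-199a-5p at 32.3 (SD 1.19). The lower members included miR-152, at a mean Ct of 29.9 with signals of 72.9 on array 2 and 67.8 on array 1, and miR-100, at a mean Ct of 27.9 with signals of 92.5 on array 2 and 112.9 on array 1. Of the 4 miRNAs listed here as driven by SRF and myocardin, a list that holds the pair itself, 3 were detectable on each platform. They were miR-143, miR-145 and the striated muscle miRNA miR-133a (mean Ct 30.6), so apart from the pair only miR-133a was detectable. miR-1, which shares a transcript with miR-133a and rises on differentiation, had signals of 13.6 on array 2 and 13.3 on array 1, below the limit. Its mouse assay had a mean Ct of 35.4 (SD 3.40), with 40 and 34.968 in RT2 on day 2 and day 1 and 34.755 and 31.812 in RT1 on day 2 and day 1, so 3 of the 4 cards were at 35 or less. The assay named for rat miR-1 was detectable, at a mean Ct of 31.3 (SD 0.780). Of the striated muscle list 3 of 7 assays were detectable and 4 of 7 probes were detected. The 3 assays were miR-133a, miR-133b (mean Ct 28.8) and miR-486 (mean Ct 29.0), of which miR-133b and miR-486 had mean Ct values close to that of miR-143. The heart and slow muscle miRNAs miR-208 (mean Ct 36.4, SD 2.47), miR-208b (39.0, SD 2.00) and miR-499 (35.4, SD 3.21) were not detectable. The rule uses the mean with undetermined wells at 40, so single cards can have been at 35 or less, as for miR-1. The skeletal muscle miRNA miR-206, which is on the microarray, had signals of 5499 on array 2 and 3570 on array 1.

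Markers of other cell types gave mixed counts. Of 7 epithelial miRNAs 0 were detectable on either platform, and the same held for 12 assays and 16 probes of embryonic stem cell miRNAs and for the liver miRNA miR-122. The assay counts use the mean Ct, and single cards can have been at 35 or less, as with miR-200c (mean Ct 37.2, SD 3.44). In blood cells 3 of 5 assays were detectable (miR-142-3p at a mean Ct of 30.6 and 2 between 34 and 35) and 0 of 6 probes were. The erythroid miR-451 was undetermined on every card. Of the endothelial pair, miR-126-3p was at a mean Ct of 32.1 and neither probe was detected. Of 6 neuronal assays 2 were detectable, miR-9 at a mean Ct of 28.9, slightly below that of miR-143, and miR-128a at 34.3, whereas miR-124 was not. Of 6 neuronal probes 1 was detected, miR-128, with signals of 76.7 on array 2 and 65.7 on array 1, whereas miR-9 had signals of 15.9 on array 2 and 15.4 on array 1. Of 4 islet assays 1 was detectable, miR-375 at a mean Ct of 34.6. None of these lists holds a marker of smooth muscle apart from the pair itself, so smooth muscle expression in this cell line was not tested.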

How the data were processed

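All samples were aliquots of 1 RNA preparation from proliferating C2C12 myoblasts. For the qPCR-arrays the authors deposited Ct values per assay, with undetermined wells at 40, and the same values minus MammU6. The subtraction was repeated here and differed by at most 0.001 cycles. The microarray values that the authors deposited are each spot's scanner density and a background-subtracted intensity. The paper's methods also name normalization by a locally weighted regression. For the spots of both guides and miR-145*, the deposited intensity was the density minus a background amount. The platform comparison here therefore used signals without the normalization that the paper names. The number of arrays limits the precision.

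Assay numbers were removed from the names, and mmu-miR-143 and mmu-miR-145 were matched exactly. Cards were compared with limma 3.58.1 (R 4.3.3) on ΔCt over the 182 detectable miRNAs. The labels pair cards by day and by reaction, and deviations from the group means correlated at 0.0255 over cards of the same day and 0.325 over cards of the same reaction. Arrays were compared with limma on log2 spot densities after normexp (offset 50) and cyclic loess over 617 probes. Benjamini-Hochberg adjustment was used, and a call needed an adjusted p under 0.05. The t-test of the study's methods was read at 0.01. Python 3.11.15, numpy 2.4.6, pandas 2.3.3 and matplotlib 3.10.9 were used, and the fits were tested on simulated data.

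Named miRNAs were both guides, miR-145*, the 2 assays on either side of each, the 3 most alike on both platforms, the lists and the controls. The members and lists were chosen with earlier results of these data known. Sequences of the members are not reported here.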

Additional observations from a re-analysis of the deposited data

Results flagged for a closer look

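For both miRNAs the RT2 minus RT1 difference in ΔCt had opposite signs on the 2 days, which is why these values are listed. It was 0.054 cycles on day 2 and -0.296 cycles on day 1 for miR-143, and 0.133 cycles on day 2 and -0.052 cycles on day 1 for miR-145. Each value is 1 card minus 1 card, so the difference between days was not tested. MammU6 was at a Ct of 19.770 on the RT1 card of day 2, the highest of the 4 cards. In raw Ct and relative to the other 4 controls the sign was the same on both days for both miRNAs.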

How the results depend on the processing

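The test of miR-143 between reactions kept its direction and side of the threshold under all 12 alternatives, and leaving out 1 card gave -0.21 to -0.03 cycles. The sign of the RT2 minus RT1 difference of miR-145 reversed, always without a call, with the other controls (-0.17), the card mean (-0.084) and raw Ct (-0.038), and leaving out 1 card gave -0.019 to 0.10. The sign of the day difference of miR-143 reversed with the other controls (-0.032) and the card mean (-0.011), and that of miR-145 with raw Ct (0.06). Leaving out 1 card gave -0.14 to 0.16 for miR-143 and -0.093 to 0.040 for miR-145. The cause of these reversals was not tested.

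Between reactions, 4 of 182 miRNAs passed, 2 in raw Ct, 2 by the methods' t-test, 0 over miRNAs at 35 or less on every card, 0 at a mean Ct of 30 or less, and 0 to 1 without 1 card. Between days, 0 passed, 1 by the methods' t-test and 0 to 1 without 1 card. With the replicate block, 1 miRNA passed between reactions and 0 between days, the differences were unchanged at -0.12 and 0.04 cycles between reactions and 0.01 and -0.03 between days for miR-143 and miR-145, and limma adjusted p for both was 0.948 between reactions and 0.996 between days. The block changed no call of either miRNA.

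Between arrays, 42 probes passed, 17 with the deposited signal, 72 with no normalization and 18 with the deposited signal and no normalization, a setting chosen after seeing the data. miR-143 passed as lower on array 2 in 4 of 7 alternatives. These were no background correction (-0.17), quantile (-0.50), no normalization (-0.46) and the detected probes alone (-0.29), where fewer probes were tested. The same settings called 49, 51 and 72 of the 617 probes, and 53 of the 137 detected probes, in that order.

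The mean level moved with its reference by construction, to 2.41, -0.63 and 28.98 for miR-143 and 0.35, -2.69 and 26.92 for miR-145 with the other controls, the card mean and raw Ct. Without 1 card it was 9.30 to 9.40 for miR-143 and 7.27 to 7.31 for miR-145. The Ct difference within a card was -2.10 to -2.02 without 1 card. The residuals between platforms were -1.98 for miR-143 and -2.10 for miR-145 over miRNAs with a signal of 100 or more on both arrays. Without 1 card or array they were -0.78 to -0.17 for miR-143, with -0.17 reached without array 2, and -1.10 to -0.87 for miR-145. With 4 cards and 2 arrays of 1 RNA, differences smaller than the intervals given cannot be resolved.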
